A study of Homo sapiens with 12 samples.

Results

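Deletion of MPC1 in the human AML line Molm-14 was followed by a change in 45 of 659 miRNAs tested, 18 of them higher and 27 lower than in the Empty Vector (EV) controls. The libraries compared were all 3 Molm-14 MPC1 KO and all 3 Molm-14 EV libraries, which are 6 of the 12 small RNA libraries of the series. Every miRNA with enough counts was tested and is reported in both directions. The protein MPC1 is part of the carrier that brings pyruvate, the product of glycolysis, into the mitochondrion. Both groups were Molm-14 cells, which carry a FLT3 internal tandem duplication, transduced with a lentiviral CRISPR/Cas9 vector with a GFP marker. The MPC1 KO cells carried 1 guide against human MPC1 and the EV cells no such guide. The labels do not say whether the MPC1 KO cells were a pool or a clone, nor whether each library had a culture of its own, so p-values measure only the spread between these libraries, which may be technical. The other 6 libraries were MV4-11 MPC1 KO and MV4-11 EV, with 3 each. These libraries do not read mRNA, so no value here checks the loss of MPC1. The paper reported fewer MPC1 transcripts in Molm-14 MPC1 KO cells by qPCR and showed a Western blot of the protein.

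MicroRNAs are short RNAs that are cut from hairpin precursors and guide Argonaute proteins to messenger RNAs. Pairing runs mainly through the seed, bases 2 to 8 of the mature miRNA. A hairpin can give a mature miRNA from its 5p and from its 3p arm, and neighbouring hairpins are often cut from 1 transcript. In myeloid cells miR-142 and miR-223 are abundant, and the miRNAs of the HOX clusters, miR-155 and miR-146a are well known in AML and in inflammatory signalling.

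The sequences of the miRNAs that moved most are shown first, as RefSeq gives them for GRCh38.p14, with the seed in capitals. Those that were lower in MPC1 KO cells by the largest fold were these.
hsa-miR-138-5p: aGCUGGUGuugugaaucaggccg
hsa-miR-95-3p: uUCAACGGguauuuauugagca
hsa-miR-196a-5p: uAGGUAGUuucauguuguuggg
hsa-miR-10a-3p: cAAAUUCGuaucuaggggaaua
hsa-miR-145-3p: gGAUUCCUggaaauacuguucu
hsa-miR-10a-5p: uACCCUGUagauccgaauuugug
hsa-miR-618: aAACUCUAcuuguccuucugagu
hsa-miR-4775: uUAAUUUUuuguuucggucacu

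The miRNAs that were higher by the largest fold, other than hsa-miR-34c-5p, and the abundant arm of miR-155 were these.
hsa-miR-1-3p: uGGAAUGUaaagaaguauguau
hsa-miR-4518: gCUCAGGGaugauaacugugcugaga
hsa-miR-708-5p: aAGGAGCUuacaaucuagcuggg
hsa-miR-216b-5p: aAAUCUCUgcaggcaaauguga
hsa-miR-582-3p: uAACUGGUugaacaacugaacc
hsa-miR-155-3p: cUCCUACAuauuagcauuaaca
hsa-miR-497-5p: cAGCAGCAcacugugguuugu
hsa-miR-155-5p: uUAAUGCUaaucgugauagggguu

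The last set holds 3 miRNAs that fell and the miRNA nearest to each by sequence, to show how little separates miRNAs that moved from relatives that were not past the test.
hsa-miR-196a-5p: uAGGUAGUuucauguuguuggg
hsa-miR-196b-5p: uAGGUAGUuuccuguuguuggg
hsa-miR-100-5p: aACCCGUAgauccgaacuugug
hsa-miR-99a-5p: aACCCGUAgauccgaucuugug
hsa-let-7e-5p: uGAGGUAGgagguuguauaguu
hsa-let-7a-5p: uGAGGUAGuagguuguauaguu

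The 6 libraries held between 3870104 and 5798237 miRNA counts, so 1 count was worth between 0.180 and 0.267 CPM, the unit used below, which is the count scaled to a common library size with TMM factors. Of 1204 miRNAs in the table, 659 passed the filter on low counts, and these held over 99.9% of the counts of each library. The second library of each group stood apart from the other two. The share of hsa-miR-148a-3p, for example, was 19.3% and 17.8% there, against 13.4% to 15.0% in the other 4 libraries. With both second libraries left out, 30 miRNAs passed (10 higher, 20 lower), of which 28 were among the 45, and none of the 45 changed sign. Markers of myeloid cells were high in every library, at 56766 to 61596 CPM in sum in EV and 61711 to 68318 in MPC1 KO. Markers of lymphoid, erythroid, liver, pancreatic and heart cells summed to at most 11.7 CPM in any of the 6 libraries, and none of the marker miRNAs was at 0 in all 6. The endothelial markers, both arms of miR-126, which blood progenitors also express, summed to between 4362 and 6313 CPM. The 10 epithelial markers summed to 132 to 153 CPM in EV and 163 to 172 CPM in MPC1 KO, and the 3 neuronal ones to 12.3 to 12.8 CPM and 13.0 to 16.2 CPM, with none called.

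The 45 miRNAs made up 6.83% of those tested, with 2.73% called higher and 4.1% called lower, where called means an adjusted p under 0.05 from edgeR's quasi-likelihood test. The EV and MPC1 KO libraries did not overlap for any of the 45, whereas they did not overlap for 27.2% of all miRNAs tested (179 of 659). Since the 45 were picked by their low adjusted p, this separation adds no support of its own. The fold change was at least 2 (1 on the log2 scale) for 13 of the 45, of which 8 fell and 5 rose. The balance of the directions depended on the scaling. Scaled by upper-quartile factors instead, 30 were higher and 23 lower, and the median log2 fold change of all miRNAs tested moved from -0.01 to 0.05. No called miRNA changed sign.

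**Figure D1:**
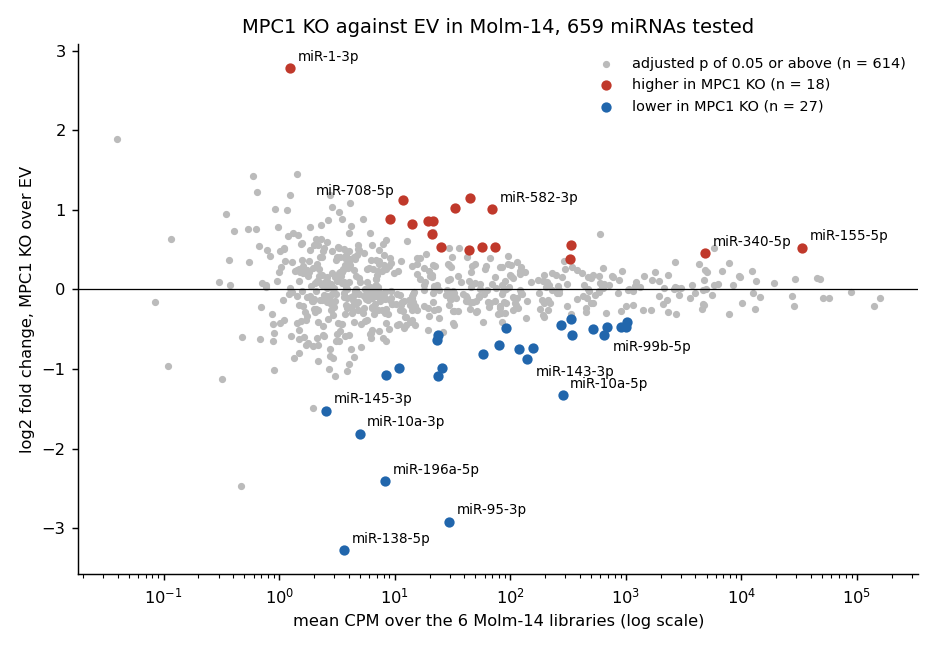
Each point is 1 of the 659 miRNAs tested, with its mean CPM over the 6 Molm-14 libraries on a log scale (x) and its log2 fold change, MPC1 KO over EV (y). The 27 miRNAs called lower reach -3.27 (hsa-miR-138-5p), and apart from hsa-miR-1-3p at 2.78 the 18 called higher stay at or under 1.15.

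The share of miRNAs called differed along the range of abundance. Among 332 miRNAs with a mean under 10 CPM, 2 were called higher and 5 lower (2.11%), and the median standard error was 0.38 on the log2 scale. Between 10 and 100 CPM, 12 of 161 were higher and 9 lower (13.0%), with a median standard error of 0.17. Between 100 and 1000 CPM the calls were mostly falls, 11 lower and 2 higher of 97 (13.4%). Above 1000 CPM, 2 of 69 were higher and 2 lower (5.80%), and all 4 had a size of 0.52 or less. The 7 called under 10 CPM had sizes of 0.89 or more.

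hsa-miR-138-5p, best known from neurons where it limits the size of dendritic spines, fell the furthest among the miRNAs tested. It had 28, 28 and 30 counts in the 3 EV libraries and 2, 4 and 4 in the 3 MPC1 KO libraries. All MPC1 KO libraries were therefore near the floor of 3 counts. The ratio of EV to MPC1 KO was 9.95, with a 95% interval of 5.16 to 21.5 that covers counting error only, and the fit gave -3.27 on the log2 scale (standard error 0.48, adjusted p = 4.51e-05). Its mature sequence lies at 2 places in the genome, in MIR138-1 on chromosome 3 and MIR138-2 on chromosome 16, and the counts do not tell the loci apart.

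The fall of hsa-miR-95-3p was the next largest. Its level was 51.1, 51.0 and 54.9 CPM in EV and 6.83, 6.05 and 7.97 CPM in MPC1 KO, a 7.55-fold fall (log2 fold change -2.92, standard error 0.18, adjusted p = 1.28e-11). No other miRNA had a lower adjusted p in this comparison. The spread within each group was small beside the distance between the groups.

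Among the miRNAs of the HOX clusters every call was a fall. miR-10a lies in an intron of HOXB3 (chr17:48579838-48579947, minus strand), miR-196a has loci in the HOXB and HOXC clusters, and miR-196 is known to cleave the HOXB8 transcript. Of 6 HOX-cluster miRNAs tested, 3 were called lower and none higher, where 4.1% and 2.73% of all miRNAs tested were. Of the 6, 5 were below 0, with a median log2 fold change of -0.99 against -0.01 for all 659. The list was drawn up with results of these data known.
hsa-miR-10a-5p, the most abundant of the 3 called, had 408, 402 and 411 CPM in EV and 165, 171 and 149 CPM in MPC1 KO. Its libraries agreed closely within each group, and the fall was 2.51-fold (log2 fold change -1.33, standard error 0.11, adjusted p = 4.65e-09). hsa-miR-10a-3p, from the other arm of the same hairpin, had 7.19, 7.74 and 8.32 CPM in EV and 1.98, 1.28 and 3.52 CPM in MPC1 KO (log2 fold change -1.81, standard error 0.34, adjusted p = 0.000872). hsa-miR-196a-5p fell from 12.2, 13.6 and 16.2 CPM to 2.70, 2.38 and 2.81 CPM, which is 5.29-fold (log2 fold change -2.40, standard error 0.32, adjusted p = 1.64e-05). The other members tested were not past the test. They were hsa-miR-10b-5p (-0.64, standard error 0.25, adjusted p = 0.123), hsa-miR-196b-5p (-0.19, standard error 0.09, adjusted p = 0.255) and hsa-miR-196b-3p (0.37, standard error 0.24, adjusted p = 0.431).

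miR-615, which lies in the HOXC cluster but was not in that list, was added after its values were seen. hsa-miR-615-3p had 467, 424 and 347 CPM in EV and 261, 293 and 280 CPM in MPC1 KO (log2 fold change -0.57, standard error 0.11, adjusted p = 0.00153). With its arms included, 4 of 8 HOX-cluster miRNAs were called lower, against 4.1% of all miRNAs tested, and 7 of 8 were below 0. Since miR-615 was added with its values known, these counts are a description.

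hsa-miR-196a-5p and hsa-miR-196b-5p differ by A12C, counted from the 5′ end with the base of miR-196a first. hsa-miR-196b-5p held a mean of 9969 counts per library against 37.3 for hsa-miR-196a-5p. Both log2 fold changes were below 0, and that of the abundant relative was -0.19. The part that reads of one could play in the count of the other was not tested. hsa-miR-196a-5p, hsa-miR-138-5p and hsa-miR-1-3p each have 2 loci, and how reads that match several places were counted is not given in the sources used here. The same limit holds for hsa-miR-101-3p, which matches the genome at 2 places, hsa-miR-550a-3-5p at 3 and hsa-miR-1246 at 20. Other miRNAs with 2 loci ranged widely in this table, from a mean of 1.83 counts for hsa-miR-181a-5p (2029 for its 3p arm) and 21.8 for hsa-miR-26a-5p to 27903 for hsa-miR-92a-3p. The counts of such miRNAs may therefore be a part of their reads, which was not tested, and their values are those of the table rather than of the whole miRNA.

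The largest rises were mostly of miRNAs under 100 CPM. hsa-miR-1-3p, a miRNA of heart and skeletal muscle, had 2, 1 and 1 counts in EV and 9, 17 and 8 in MPC1 KO. The ratio of MPC1 KO to EV was 7.34, with a 95% interval of 2.62 to 28.5 that covers counting error only, and the fit gave 2.78 on the log2 scale (standard error 0.54, adjusted p = 0.00109). Its sequence lies at 2 places, in MIR1-1 on chromosome 20 and MIR1-2 on chromosome 18. It was tested through the MV4-11 libraries, where it is more abundant, and did not pass the filter when the Molm-14 libraries were fitted alone.

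hsa-miR-582-3p lies in an intron of PDE4D, which encodes a cyclic AMP phosphodiesterase. It rose from 41.1, 54.4 and 43.4 CPM in EV to 92.4, 106 and 80.0 CPM in MPC1 KO, which is 2.02-fold (log2 fold change 1.01, standard error 0.13, adjusted p = 1.02e-05). The lowest MPC1 KO library was well above the highest EV library, and this was the smallest adjusted p among the rises.

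hsa-miR-708-5p, from an intron of TENM4, had 8.58, 7.21 and 6.52 CPM in EV and 16.5, 16.0 and 16.4 CPM in MPC1 KO (log2 fold change 1.12, standard error 0.26, adjusted p = 0.00550). With both second libraries left out its adjusted p was 0.0522. hsa-miR-4518, from an intron of the integrin gene ITGAL, rose from 29.7, 18.7 and 35.3 CPM to 61.7, 67.9 and 57.2 CPM (log2 fold change 1.15, standard error 0.29, adjusted p = 0.0318). Its EV libraries were the more scattered group, and its call was lost without any 1 of 5 Molm-14 libraries, all but EV replicate 3 (adjusted p up to 0.132). hsa-miR-34c-5p, which p53 induces, had 6.79, 6.67 and 5.85 CPM in EV and 11.3, 13.9 and 10.3 CPM in MPC1 KO (log2 fold change 0.89, standard error 0.23, adjusted p = 0.0131). Of 5 miRNAs of the miR-34 and miR-449 family tested, it was the 1 called, against 6.83% of all miRNAs tested. That count says little of the family. The call of hsa-miR-34c-5p did not hold without EV replicate 3 or MPC1 KO replicate 2, where p reached 0.112 after adjustment.

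miR-216a, miR-216b and miR-217 are encoded in MIR217HG on chromosome 2 and are known from pancreatic acinar cells. hsa-miR-216b-5p rose from 20.8, 25.6 and 19.8 CPM to 41.9, 49.5 and 42.7 CPM (log2 fold change 1.02, standard error 0.18, adjusted p = 0.000453). hsa-miR-217 rose from 9.38, 10.1 and 11.2 CPM to 19.8, 17.2 and 17.4 CPM (log2 fold change 0.82, standard error 0.22, adjusted p = 0.0176). Its call was lost without EV replicate 1 or MPC1 KO replicate 1, where p reached 0.0887 after adjustment. The arms of miR-216a were at 0.79 each and did not pass (adjusted p = 0.263 for hsa-miR-216a-3p and 0.472 for hsa-miR-216a-5p). hsa-miR-375, the marker of endocrine pancreas in the list used here, was at or under 1.60 CPM in all 6 libraries.

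hsa-miR-497-5p carries the AGCAGCA seed of the miR-15/16 family, whose members hold back cyclins and BCL2. Its level was 13.4, 14.7 and 17.8 CPM in EV and 26.1, 27.1 and 29.8 CPM in MPC1 KO (log2 fold change 0.86, standard error 0.19, adjusted p = 0.00364). All 6 miRNAs with that seed that were tested were above 0, with a median of 0.26, where 313 of all 659 were above 0. Of the 6, hsa-miR-497-5p was the 1 called, against 6.83% of all miRNAs tested, so that count says little of the family.

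**Figure D2:**
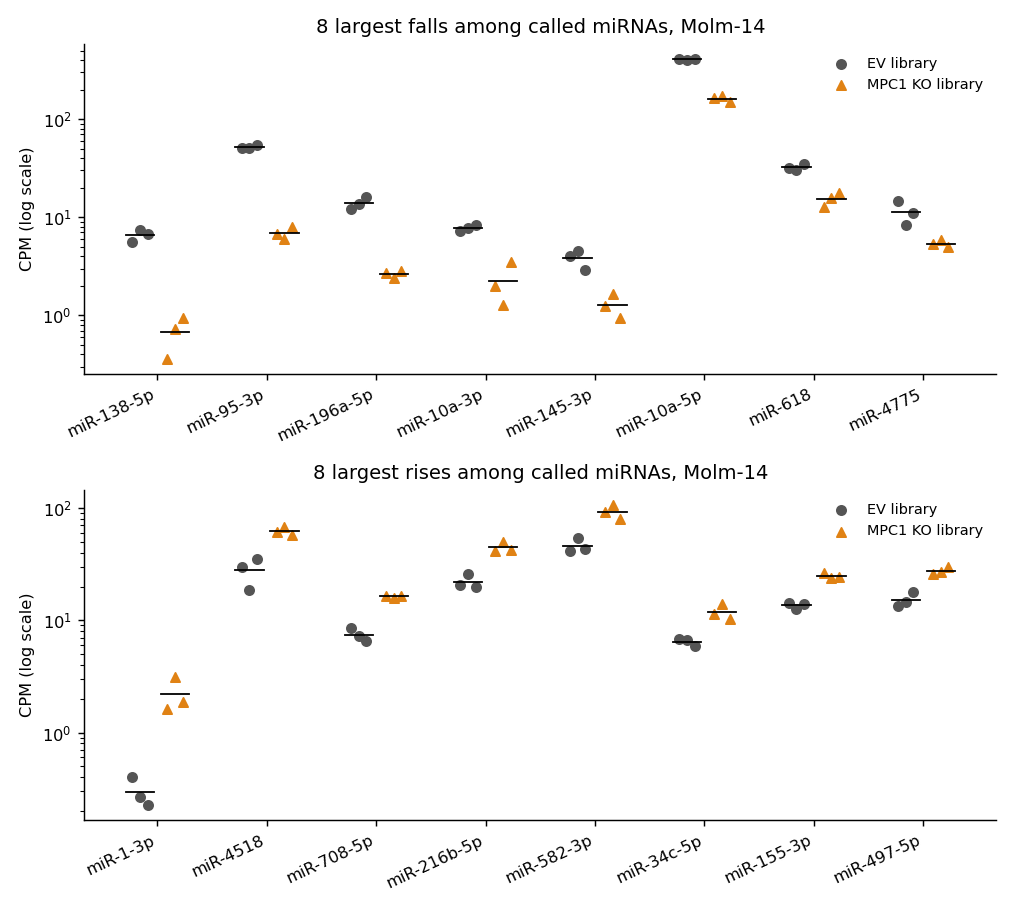
CPM on a log scale (y) of the 8 called miRNAs with the largest falls and the 8 with the largest rises (x), with circles for the 3 EV and triangles for the 3 MPC1 KO libraries of Molm-14 and a line at each group's mean. The 16 were chosen with EV and MPC1 KO libraries that do not overlap, so their separation is not a result. The group means are furthest apart for hsa-miR-138-5p, hsa-miR-95-3p and hsa-miR-1-3p.

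The inflammatory miRNAs did not move together. miR-155, from MIR155HG on chromosome 21, rises on immune activation and restrains the phosphatase SHIP1, and miR-146a, which NF-kB induces, restrains IRAK1 and TRAF6. Of 8 arms of miR-155, miR-146a, miR-146b and miR-21 tested, 2 were called higher and 1 lower, against 2.73% and 4.1% of all miRNAs tested. hsa-miR-155-5p had 26482, 27413 and 29373 CPM in EV and 37642, 39530 and 42525 CPM in MPC1 KO, a rise of 1.44-fold (log2 fold change 0.52, standard error 0.12, adjusted p = 0.00732). Its groups were apart, but with both second libraries left out its adjusted p was 0.0863. hsa-miR-155-3p rose from 14.4, 12.5 and 13.9 CPM to 26.6, 23.7 and 24.4 CPM (log2 fold change 0.87, standard error 0.19, adjusted p = 0.00447). hsa-miR-146a-5p fell from 207, 184 and 204 CPM to 120, 111 and 126 CPM (log2 fold change -0.74, standard error 0.10, adjusted p = 1.89e-05). hsa-miR-146b-5p has the same seed and is the more abundant at a mean of 27969 CPM in EV, and no change in it was detectable (log2 fold change -0.08, 95% interval -0.41 to 0.26).

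In share of the library the rise of miR-155-5p was the largest of the called changes. The called rises added 14117 CPM in sum, and the sum of the called falls decreased by 2570 CPM. hsa-miR-155-5p made up 86.0% of the CPM gained. hsa-miR-155-5p held 2.67% ± 0.143 of the counts in EV and 3.91% ± 0.266 in MPC1 KO (SD, n = 3 each; exact permutation test, two-sided, p = 0.1). With 3 libraries against 3 that test cannot go below 0.1. By the same test and with the same p, hsa-miR-21-5p held 14.6% ± 0.838 in EV and 12.9% ± 0.110 in MPC1 KO, and hsa-miR-142-3p 4.09% ± 0.304 and 4.60% ± 0.125 (SD, n = 3 each). Neither was called by edgeR (adjusted p = 0.263 and 0.520). The 10 most abundant miRNAs together held 66.6% ± 1.02 and 65.6% ± 1.07 (SD, n = 3 each; exact permutation p = 0.3), so most of each library was taken by the same few miRNAs with or without MPC1. They were hsa-miR-148a-3p, hsa-miR-21-5p, hsa-let-7i-5p, hsa-let-7g-5p, hsa-miR-191-5p, hsa-miR-20a-5p, hsa-miR-142-3p, hsa-miR-155-5p, hsa-miR-17-5p and hsa-miR-25-3p. hsa-miR-155-5p moved from rank 11 among the miRNAs tested in EV to rank 8 in MPC1 KO.

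In the 2 groups of hairpins lying together on 1 strand that held more than 1 call, all the calls went in 1 direction. Of 42 groups of hairpins with gaps of at most 10 kb, 8 held a called miRNA, 2 held at least 2, and none held calls in both directions. These groups held 158 of the miRNAs tested and 12 of those called, 7.59%, which is near the 6.83% called over all miRNAs tested.

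The miR-99b, let-7e and miR-125a hairpins lie within chr19:51692612-51693339 on the plus strand, in SPACA6. miR-99b shares its seed with miR-100, let-7 restrains LIN28 and HMGA2, and miR-125a is expressed in blood stem cells. All 6 arms tested were below 0 and 4 were called lower, against 4.1% of all miRNAs tested.
hsa-miR-99b-5p had 844, 748 and 734 CPM in EV and 541, 502 and 524 CPM in MPC1 KO (adjusted p = 9.01e-05). hsa-miR-125a-5p had 695, 513 and 628 CPM in EV and 467, 371 and 467 CPM in MPC1 KO (adjusted p = 0.0112), and the call was lost without EV replicate 1 or MPC1 KO replicate 2, where p reached 0.117 after adjustment, and with upper-quartile factors (0.0634). hsa-miR-99b-3p was the other arm called (-0.48, standard error 0.12, adjusted p = 0.0112), a call lost without EV replicate 1 or any 1 MPC1 KO library (up to 0.0850). The second library was the lowest of its group for hsa-miR-125a-5p in both groups. hsa-let-7e-5p fell from 341, 282 and 323 CPM to 220, 239 and 237 CPM (adjusted p = 0.00550), while hsa-let-7a-5p, which differs from it by G9U, was at 0.05 on the log2 scale (95% interval -0.24 to 0.33). Without MPC1 KO replicate 1 the adjusted p of hsa-let-7e-5p was 0.0635. The cluster held 0.175% ± 0.0157 of the counts in EV and 0.125% ± 0.0107 in MPC1 KO (SD, n = 3 each; exact permutation p = 0.1, two-sided).

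hsa-miR-100-5p fell as well, from 78.2, 76.3 and 68.6 CPM to 42.1, 46.0 and 38.5 CPM (log2 fold change -0.82, standard error 0.13, adjusted p = 0.000155). Its hairpin lies in an intron of MIR100HG on chromosome 11. The seed ACCCGUA that it shares with hsa-miR-99b-5p was the 1 seed held by more than 1 of the 42 called miRNAs that had a RefSeq sequence, which had 41 seeds. The third miRNA with that seed, hsa-miR-99a-5p, differs from hsa-miR-100-5p by A16U, held a mean of 40083 counts per library against 272, and was at 0.05 on the log2 scale (95% interval -0.41 to 0.51).

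The miR-143 and miR-145 hairpins lie within chr5:149428918-149430733 on the plus strand, in CARMN, and are known from smooth muscle. hsa-miR-143-3p fell from 173, 197 and 168 CPM to 95.7, 99.6 and 96.8 CPM (log2 fold change -0.88, standard error 0.10, adjusted p = 3.74e-06). hsa-miR-145-3p, at 3.99, 4.54 and 2.92 CPM in EV and 1.26, 1.65 and 0.938 CPM in MPC1 KO, was near the floor (log2 fold change -1.52, standard error 0.33, adjusted p = 0.00305). All 4 arms were below 0. These arms are also markers of mesenchymal cells. The sum over the 5 such markers in the table was 187 to 210 CPM in EV and 105 to 110 CPM in MPC1 KO. Of the 5, 2 were called, against 6.83% of all miRNAs tested. The part of other cells in these falls was not tested, and fewer cells of a type and less RNA per cell cannot be told apart in such libraries.

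In the other 6 groups 1 miRNA each was called. miR-221 and miR-222 on chromosome X, which restrain KIT and the cell cycle inhibitor p27, were above 0 for all 4 arms (median 0.52), and hsa-miR-222-5p was called (0.53, standard error 0.15, adjusted p = 0.0326). The abundant arms hsa-miR-221-3p (0.34, adjusted p = 0.0682) and hsa-miR-222-3p (0.51, adjusted p = 0.232) did not pass. hsa-miR-132-3p, which CREB induces, was called with hsa-miR-132-5p at 0.52 and an adjusted p of 0.0791. hsa-let-7d-3p fell (-0.47, standard error 0.09, adjusted p = 0.000872), and hsa-let-7d-5p was at -0.24 (adjusted p = 0.108). hsa-miR-542-3p rose (0.38, standard error 0.11, adjusted p = 0.0302), and miR-424 and miR-503 of the same group had log2 fold changes between -0.14 and 0.10. hsa-miR-497-5p lies beside miR-195, whose arms were at 0.39 and 0.72, and hsa-miR-217 beside miR-216a. Leaving out 1 library ended the calls of hsa-miR-222-5p (EV replicate 1 or 3, MPC1 KO replicate 2 or 3), hsa-miR-132-3p (any but EV replicate 2) and hsa-miR-542-3p (EV replicate 1 or 2, MPC1 KO replicate 1 or 2), with adjusted p up to 0.118, 0.147 and 0.179.

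**Figure D3:**
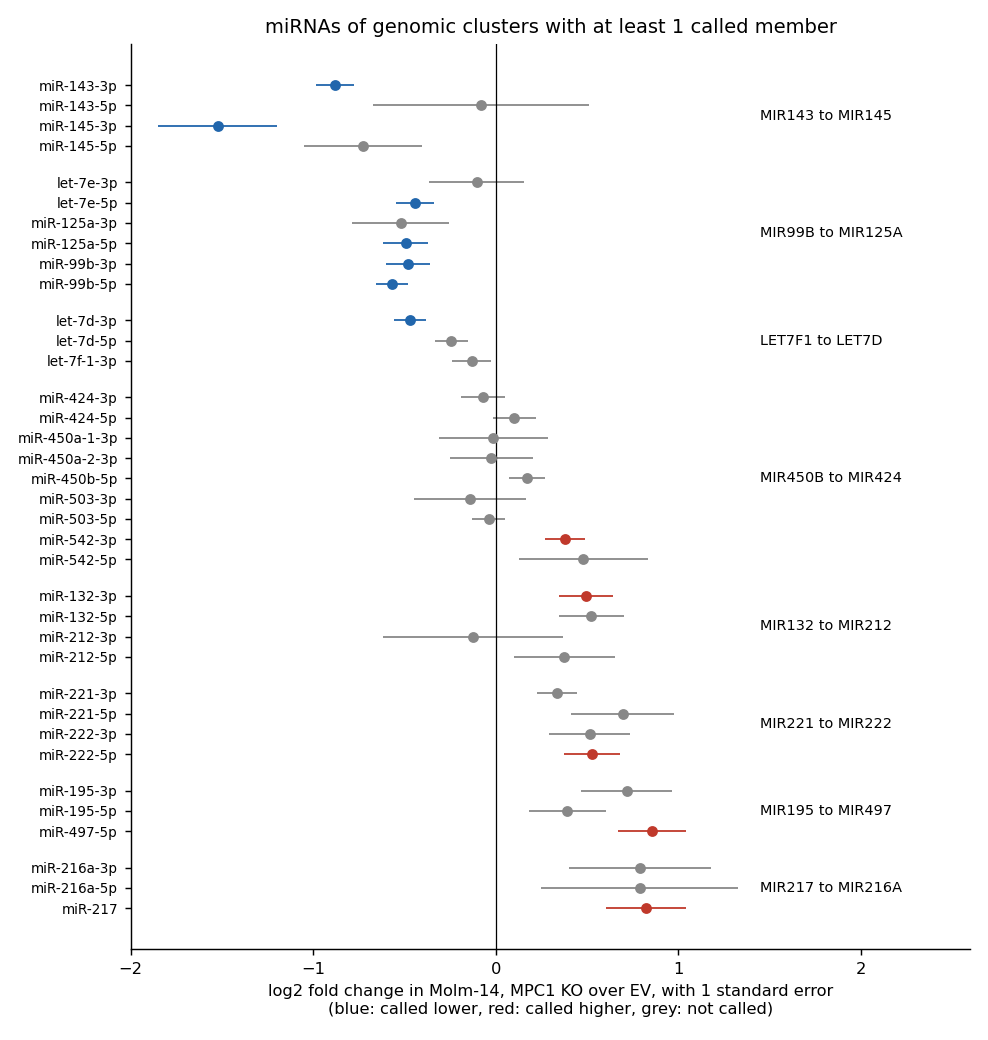
Log2 fold change in Molm-14, MPC1 KO over EV, with 1 standard error (x) for every tested miRNA of the 8 groups of neighbouring hairpins that held a called miRNA. Blue marks called lower, red called higher and grey not called. All 10 points of the miR-143 and miR-99b groups are below 0, and all 10 of the miR-221, miR-497 and miR-217 groups are above 0.

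Both arms of a called hairpin lay on 1 side of 0 wherever both were tested. The other arm was tested for 27 of the 45 called miRNAs, and it was on the same side of 0 for all 27. Both arms were called for 3 of these hairpins, miR-10a, miR-99b and miR-155, and 1 arm for the other 21. Each of the 3 is counted in the 27 once per arm. Some other arms were near 0, such as hsa-miR-652-5p at -0.02 (standard error 0.21). The share of all hairpins with both arms on 1 side is not given here, so the 27 are a description. The ratio of the 5p to the 3p arm was tested with limma for the 136 hairpins with a mean of at least 10 counts in each arm, 3 of them with both arms called and 19 with 1, and 0 (0%) were called, with 19 at an unadjusted p under 0.05 and a smallest adjusted p of 0.302. The largest change by unadjusted p was that of miR-18a, with a 5p share of 66.3%, 70.2% and 70.0% in EV and 74.3%, 75.5% and 73.9% in MPC1 KO (change in log2 ratio 0.41, standard error 0.11, unadjusted p = 0.00243, adjusted p = 0.302 from limma). For miR-582, whose 3p arm rose, the 5p arm was at 0.39 (adjusted p = 0.542) and the log2 ratio changed by -0.63 (standard error 0.25, adjusted p = 0.302 from limma). The 5p arm of miR-10a held 98.3%, 98.1% and 98.0% of the counts of both arms in EV and 98.8%, 99.3% and 97.7% in MPC1 KO. Across the 136 hairpins the log2 fold changes of the arms had a Pearson correlation of 0.604, given as a description since both arms were read in the same 6 libraries.

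**Figure D4:**
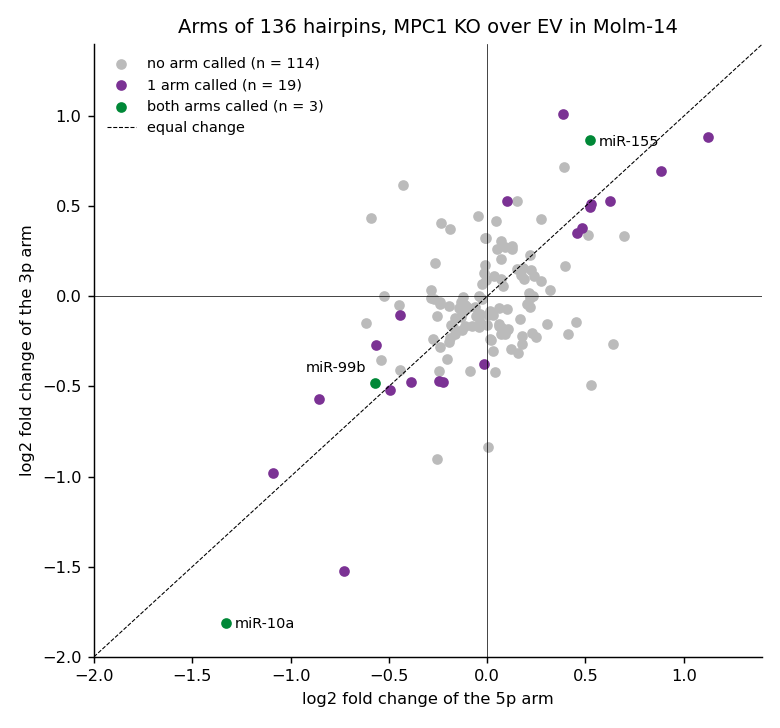
Log2 fold change, MPC1 KO over EV in Molm-14, of the 5p arm (x) and the 3p arm (y) of 136 hairpins with both arms counted. The dashed line marks equal change. The 3 hairpins with both arms called and the 19 with 1 arm called lie in the lower left and upper right of the plot.

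Several other miRNAs with known targets were called. hsa-miR-101-3p, which restrains EZH2, rose from 260, 226 and 336 CPM to 389, 449 and 372 CPM (log2 fold change 0.56, standard error 0.12, adjusted p = 0.00444). Its sequence matches the genome at 2 places, so its counts may be a part of its reads, which was not tested. hsa-miR-152-3p, which restrains DNMT1, rose from 55.9, 55.0 and 70.2 CPM to 88.5, 83.8 and 88.9 CPM (log2 fold change 0.53, standard error 0.11, adjusted p = 0.00260). hsa-miR-148a-3p has the same seed and was the most abundant or second most abundant miRNA in each library, and it was at -0.11 (95% interval -0.38 to 0.17).
hsa-miR-340-5p, from an intron of RNF130, was the other rise above 1000 CPM, from 4140, 3770 and 4410 CPM to 5420, 6079 and 5403 CPM (log2 fold change 0.46, standard error 0.11, adjusted p = 0.00550). hsa-miR-6774-3p, from an intron of the myeloid factor IRF8, rose from 15.0, 18.7 and 14.2 CPM to 26.6, 24.9 and 25.6 CPM (log2 fold change 0.70, standard error 0.15, adjusted p = 0.00338). Its 5p arm was at 0.88 (adjusted p = 0.0687). hsa-miR-6503-3p, from an intron of MS4A4E, rose by 0.53 on the log2 scale (standard error 0.11, adjusted p = 0.00186). With both second libraries left out, hsa-miR-101-3p and hsa-miR-340-5p did not pass (adjusted p = 0.164 and 0.118).

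The remaining falls past the test were of 12 miRNAs. hsa-miR-618, from an intron of LIN7A, had 31.5, 30.2 and 35.3 CPM in EV and 12.8, 15.6 and 17.6 CPM in MPC1 KO (log2 fold change -1.08, standard error 0.19, adjusted p = 0.000457). hsa-miR-4775 had 14.6, 8.27 and 11.0 CPM in EV and 5.39, 5.87 and 4.92 CPM in MPC1 KO (log2 fold change -1.07, standard error 0.25, adjusted p = 0.00617). Its EV libraries were widely spread, and without EV replicate 1 its adjusted p was 0.0850. The others were hsa-miR-1246 (-0.99), hsa-miR-296-3p (-0.98), hsa-miR-584-5p (-0.74), hsa-miR-574-3p (-0.69), hsa-miR-550a-3-5p (-0.63), hsa-miR-324-5p (-0.57), hsa-miR-197-3p (-0.48), hsa-miR-335-3p (-0.47), hsa-miR-1180-3p (-0.41) and hsa-miR-652-3p (-0.38). The calls of hsa-miR-296-3p (MPC1 KO replicate 1 or 2), hsa-miR-550a-3-5p (any but MPC1 KO replicate 2), hsa-miR-324-5p (any but EV replicate 2), hsa-miR-197-3p (any but EV replicate 1), hsa-miR-652-3p (EV replicate 2, MPC1 KO replicate 1 or 2) and hsa-miR-1180-3p (MPC1 KO replicate 1) were lost when the library named was left out, with adjusted p up to 0.0820, 0.124, 0.110, 0.182, 0.182 and 0.0557. For hsa-miR-197-3p the log2 fold change without EV replicate 2 was -0.28. With upper-quartile factors hsa-miR-324-5p (adjusted p = 0.0587), hsa-miR-550a-3-5p (0.0525) and hsa-miR-652-3p (0.0787) did not pass, and with both second libraries left out hsa-miR-574-3p did not (0.0911).
miR-335 lies in an intron of the imprinted gene MEST. The sequence of hsa-miR-1246 is found at 20 places in the genome, more than that of any other called miRNA, so its source is the least certain. Of 547 tested miRNAs with a RefSeq sequence that match the genome at 1 place, 13 were called higher and 23 lower. Of the 34 that match at more than 1 place, 2 were called higher and 4 lower, against 6.83% called over all miRNAs tested. What lies behind that difference was not tested.

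Several families held no called member. The miR-17-92 cluster, which MYC induces, had 12 miRNAs tested, of which 10 were above 0 and 2 below (median 0.14). Its share of the library was 8.16% ± 1.02 in EV and 9.08% ± 0.504 in MPC1 KO (SD, n = 3 each; exact permutation p = 0.3, two-sided). Of 17 let-7 miRNAs other than let-7e, 13 were below 0 and 1 was called, hsa-let-7d-3p. At 6.83% called over all miRNAs tested, lists of this size hold 0 or 1 call at the background share, so these counts say little of the families. None was called of 10 miRNAs of the miR-30 family, 8 of the miR-181 family, 6 of the miR-29 family, 11 of the miR-23/27/24 clusters or 6 of the miR-106b-25 cluster. The same held for 8 of the miR-130 family, 4 of miR-193 and miR-365, 4 from 14q32 (the arms of miR-342 and miR-345), and 3 each of the miR-106a cluster, the miR-183 cluster and the miR-192 family. Among 9 blood-lineage miRNAs none was called, and hsa-miR-223-3p, the miRNA of granulocytes and monocytes, was at 0.02 (95% interval -0.18 to 0.21).
Since MPC1 acts in metabolism, 11 miRNAs known for metabolic roles were looked at, and none was called, a count near what 6.83% of all miRNAs tested would give over so few. hsa-miR-210-3p, which hypoxia induces, was 60.3, 45.9 and 58.0 CPM in EV and 63.8, 67.7 and 65.7 CPM in MPC1 KO, so that its groups did not overlap (log2 fold change 0.26, 95% interval -0.02 to 0.54, adjusted p = 0.313). hsa-miR-33a-5p, from an intron of SREBF2, was at 0.22 (95% interval -0.20 to 0.64). Of the 11, 8 were above 0 and 3 below. The largest change was that of hsa-miR-378a-3p, near the floor at 0.744 CPM in EV and 2.11 CPM in MPC1 KO (log2 fold change 1.44, adjusted p = 0.0791 from edgeR). hsa-miR-33b-3p was at -0.36 (adjusted p = 0.0981 from edgeR). Of 21 AML-associated miRNAs 2 were called higher and 3 lower, against 2.73% and 4.1% of all miRNAs tested, and all 5 are described above. Since that list and the others were drawn up with results of these data known, their counts are descriptions.

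The miRNAs just short of the threshold were hsa-miR-874-3p (0.61, adjusted p = 0.0547), hsa-miR-4425 (1.08, adjusted p = 0.0604), hsa-miR-629-5p (-0.27, adjusted p = 0.0630), hsa-miR-221-3p (0.34, adjusted p = 0.0682) and hsa-miR-4685-3p (-1.03, adjusted p = 0.0682). The EV and MPC1 KO libraries did not overlap for 4 of these 5, the exception being hsa-miR-4425. Over all miRNAs tested this held for 27.2%. Since the 5 were picked by their low adjusted p, the separation adds no support of its own.

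The 45 miRNAs were set beside their values in MV4-11. Of the 45, 22 were on the same side of 0 there, 9 of the 18 rises and 13 of the 27 falls. The 45 include 5 miRNAs, named in the next paragraph, that were too low in MV4-11 for their side to be read. In MV4-11 4 were called in the same direction (hsa-miR-1-3p, hsa-miR-132-3p, hsa-miR-618 and hsa-miR-100-5p) and 5 in the opposite direction. The shares of all miRNAs tested that were called or on the same side in MV4-11 are not given here, so these counts are descriptions. The difference between the lines, tested as an interaction over all 12 libraries, was called for 44 miRNAs (6.68% of those tested), of which 23 were among the 45, 7 rises and 16 falls. That count over all miRNAs moved between 22 and 53 when single libraries were left out.

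For 5 of the 45, hsa-miR-10a-3p, hsa-miR-138-5p, hsa-miR-216b-5p, hsa-miR-217 and hsa-miR-296-3p, both MV4-11 groups were at or under 0.718 CPM, the worth of 3 counts, so MV4-11 says nothing about how they respond. hsa-miR-95-3p was well counted in both lines. It was at 5.87 ± 0.134 CPM in MV4-11 EV and 6.57 ± 0.871 CPM in MV4-11 MPC1 KO (SD, n = 3 each). In Molm-14 it went from 52.3 ± 2.23 CPM in EV to 6.95 ± 0.965 CPM in MPC1 KO (SD, n = 3 each), so that the EV cells of Molm-14 were the 1 group of 4 in which it was high. hsa-miR-196a-5p was at 8.74 ± 2.77 CPM in MV4-11 EV and 10.8 ± 4.53 CPM in MV4-11 MPC1 KO (SD, n = 3 each), while in Molm-14 MPC1 KO it was at 2.63 ± 0.222 CPM (SD, n = 3). hsa-miR-10a-5p was at 7.30 ± 0.792 CPM in MV4-11 EV, far under its 407 ± 4.45 CPM in Molm-14 EV (SD, n = 3 each).
Between the EV controls, 25 of the 45 were higher in Molm-14 and 14 lower, against 221 and 187 of all 659 (adjusted p under 0.05 from edgeR's test).

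**Figure D5:**
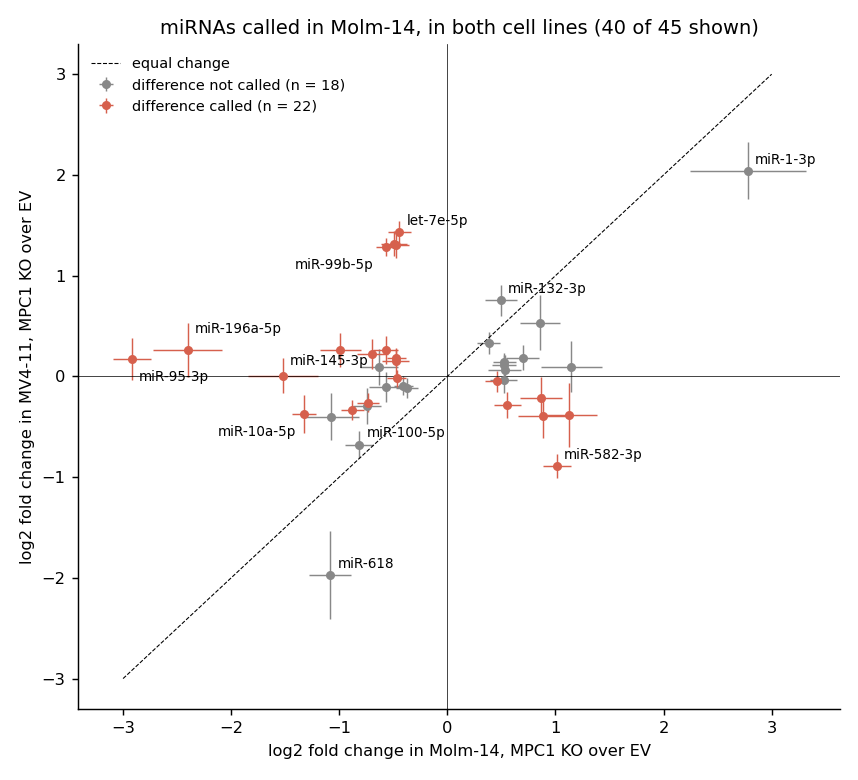
Log2 fold change, MPC1 KO over EV, in Molm-14 (x) and MV4-11 (y) with 1 standard error, for 40 of the 45 miRNAs called in Molm-14. The 5 at or under the worth of 3 counts in both MV4-11 groups are left out, and the dashed line marks equal change. The 4 called arms of the miR-99b group lie between -0.57 and -0.44 on the Molm-14 axis and between 1.28 and 1.43 on the other.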

How the data were processed

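Small RNA of the 12 libraries was sequenced and aligned by the authors, who deposited 1 table of raw read counts per mature miRNA. The submitters' processing notes name STAR 2.5.2, featureCounts 1.5.1 and GRCh38. How reads that match several loci were counted is not given in the sources used here. No column was left unused (0).

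Counts were fitted with edgeR 4.0.16 in R 4.3.3 (quasi-likelihood, robust, TMM) over all 12 libraries with a mean for each of the 4 groups, after filterByExpr with a minimum count of 10, and p-values were adjusted by Benjamini-Hochberg over 659 miRNAs, with a threshold of 0.05. Intervals of log2 fold changes are at 95%. Arm ratios, log2 with 0.5 added to each count, were tested with limma 3.58.1 for hairpins with a mean of at least 10 counts in each arm. Shares were compared by exact permutation. Alternatives included DESeq2 1.42.0 and leaving out each library. The scripts were tested on simulated data.

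Mature sequences came from RefSeq (GRCh38.p14) for 581 of the 659 tested and 42 of the 45 called, and were searched on both strands of 25 chromosomes of hg38. Hosts came from GENCODE.

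Library values were named for the 8 largest falls and 8 largest rises with groups apart, and for called members of the lists. The miRNAs, lists and tests were chosen with earlier results of these data known.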

Additional observations from a re-analysis of the deposited data

Results flagged for a closer look

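For 23 of the 45 miRNAs called in Molm-14, the effect of MPC1 deletion differed between Molm-14 and MV4-11 by edgeR's interaction test over all 12 libraries (adjusted p under 0.05). Differences are given as the Molm-14 minus the MV4-11 log2 fold change. Among the falls they were -3.09 for hsa-miR-95-3p, -2.67 for hsa-miR-196a-5p, -1.53 for hsa-miR-145-3p and -1.25 for hsa-miR-1246. In the cluster on chromosome 19, hsa-let-7e-5p had -1.88, hsa-miR-125a-5p had -1.81, and the arms of miR-99b had -1.85 (5p) and -1.78 (3p). They were smaller for hsa-miR-10a-5p at -0.96, hsa-miR-574-3p at -0.92, hsa-miR-615-3p at -0.84, hsa-miR-335-3p at -0.66, hsa-miR-197-3p at -0.63, hsa-miR-143-3p at -0.55, hsa-miR-146a-5p at -0.47 and hsa-let-7d-3p at -0.45. Among the rises they were 0.50 for hsa-miR-340-5p, 0.84 for hsa-miR-101-3p, 1.08 for hsa-miR-155-3p, 1.28 for hsa-miR-34c-5p, 1.51 for hsa-miR-708-5p, 1.90 for hsa-miR-582-3p and 2.50 for hsa-miR-216b-5p. The last rests on MV4-11 levels at or under the worth of 3 counts. Of the 23, 11 stayed past the threshold in every setting in which they were tested and 12 did not in at least 1 setting, and none changed sign.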

How the results depend on the processing

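Of the 45 miRNAs, 29 (12 higher, 17 lower) stayed past the threshold of 0.05 in each planned setting in which they were tested, with each library left out in turn included, and none changed sign. With both second Molm-14 libraries left out as well, 24 of the 29 did. A stricter filter or a fit of Molm-14 alone left 9 of the 45 untested. The number called was 77 at an adjusted p under 0.1 (32 higher, 45 lower) and 26 where a 1.5-fold change was asked for as well (10 higher, 16 lower). The number called higher was 30 with upper-quartile factors and 29 with a mean of at least 50 counts. With single libraries left out, between 36 and 56 were called, 14 to 27 higher and 20 to 29 lower. The count called different between the lines ran from 22 to 53, with 28 when replicate 1 of either MV4-11 group was dropped, 26 when the second MV4-11 EV library or Molm-14 MPC1 KO replicate 2 or 3 was, 24 for Molm-14 MPC1 KO replicate 1 and 22 for MV4-11 MPC1 KO replicate 3. With both second Molm-14 libraries left out, a setting chosen after seeing the data, 10 were called higher and 26 differed between the lines. As a share of TMM-scaled CPM, the 10 most abundant miRNAs changed by -2.29 percentage points in place of -1.02. Arm ratios gave 0 calls in every setting. The causes were not tested.

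Libraries of the same number share no stated culture or day, and their deviations from the group means correlated between -0.03 and 0.12 in Molm-14. With the replicate number as a block within each line, 52 miRNAs were called, 44 of them among the 45, 34 differed between the lines, and hsa-miR-132-3p was lost (adjusted p = 0.0701 from edgeR).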
